A study of Homo sapiens with 14 samples.

Results

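The VEGF family and secreted angiogenic factors, 8 genes of secreted angiogenic signalling, were followed in cultured colorectal cancer cells: the vascular endothelial growth factor (VEGF) ligands VEGFA, VEGFB, VEGFC and PGF, the secreted factors ANGPTL4 and ADM, and the VEGF co-receptors NRP1 and NRP2. They were chosen by symbol, and all 8 were present among the 36601 genes of the single-cell matrices and the 60624 genes of the bulk tables. In the single-cell libraries VEGFA and ADM rose between days 6 and 9 and days 12 and 15 of the culture, VEGFA by 9.85-fold in SW620 cells and 11.2-fold in SW620-TET2CD cells, and NRP1 fell. The test of time called 57.7% of all genes. In bulk SW620 the day 15 level of ADM was 0.992-fold that of day 6 inside the colonies and 0.769-fold outside, so no rise was seen there. NRP1 and NRP2 were higher, and VEGFA lower, in the single-cell libraries of the cells carrying a TET2 transgene. These calls were lost when any single library of day 6 or day 9 was left out. In bulk at day 15, in single libraries of the same lines, NRP2 was called again, a call lost without the side of the colony as a block. NRP1 was higher there but did not pass the main test. VEGFA was not called there, at 1.84-fold inside the colonies and 0.990-fold outside.

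SW620 is an established line from a lymph node metastasis of a colorectal adenocarcinoma, and SW480 is a line from the primary tumour of the same origin. SW620-TET2CD cells overexpress only the catalytic domain of TET2, an enzyme that oxidises methylated cytosine in DNA, and the study describes the SW620 cells of the single-cell libraries as expressing FLAG, the empty vector; the sources used here do not say whether those of the bulk libraries did. Single-cell RNA-seq was done on SW620 and SW620-TET2CD at days 6, 9, 12 and 15 of a long-term culture in which cells grow as colonies, with 1 library per line and day. Bulk RNA-seq was done on whole SW480 and SW620 cultures at day 6 and, at day 15, on colony cells (inside) and the cells around them (outside) of SW620 and of SW620-TET2CD, parted with a cell strainer, again with 1 library each. No condition had a second library, so each comparison was replicated over days, lines or sides of the colony. The p-values measure the spread between these single libraries. The labels name 1 SW620-TET2CD line, so the transgene and any other difference between the lines cannot be told apart.

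VEGF ligands are dimeric secreted proteins that bind receptor tyrosine kinases on endothelial cells, FLT1 for VEGFA, VEGFB and PGF, KDR for VEGFA and FLT4 for VEGFC. Neuropilins are transmembrane proteins without kinase activity that hold VEGF ligands to these receptors and also bind secreted semaphorins together with plexins. Adrenomedullin, the peptide made from ADM, acts through the receptor CALCRL paired with RAMP2 or RAMP3. ANGPTL4 inhibits lipoprotein lipase, and VEGFA, ADM and ANGPTL4 are textbook targets of the hypoxia-inducible transcription factors.

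In the GENCODE annotation of GRCh38 VEGFA lies at chr6:43770184-43786487 and NRP1 at chr10:33177492-33336262, NRP2 at chr2:205681990-205798133 and VEGFB at chr11:64234584-64239264. ANGPTL4 lies at chr19:8363289-8374370 and ADM at chr11:10305073-10307397.

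The 8 single-cell libraries held 48282 cells after filtering out of 67056 barcodes, with 48186195 to 74185723 unique molecular identifiers (UMIs, 1 per captured transcript) in the kept cells of a library. Any pair of libraries shared between 1 and 23 cell barcodes, and 297 barcodes occurred in more than 1 library. The 6 bulk libraries summed to 16470176 to 25840563 expected counts. TET2 stood at 2.11 to 3.90 CPM (UMIs scaled to an equal total per library) in the SW620 libraries and at 107, 59.5, 40.2 and 41.6 CPM in SW620-TET2CD at days 6, 9, 12 and 15, as the labels state. The epithelial markers EPCAM, KRT8 and KRT18 were high in every library, at 496 CPM or more, whereas KRT20 was at 0.217 to 0.965 CPM. Of 7 endothelial markers, 3 to 6 were detected in a library and summed to 0.420 to 2.84 CPM. KDR had no UMI in any library.

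VEGFA was the ligand with the widest range. In SW620 it was at 7.84, 13.6, 101 and 102 CPM at days 6, 9, 12 and 15. In SW620-TET2CD it was at 6.43, 9.18, 74.4 and 98.9 CPM on the same days. The 4 late libraries, of days 12 and 15, all lay above the 4 early libraries, of days 6 and 9, with no overlap, and by the 95% Poisson intervals the 3 highest libraries could not be put in order. How many of all genes parted this way was not counted, and 57.7% of tested genes were called for time. Such a parting therefore sets neither VEGFA nor any other member apart. VEGFB, a FLT1 ligand, had a narrow range, at 45.9, 55.2, 70.9 and 60.7 CPM in SW620 and at 51.7, 53.0, 71.3 and 57.4 CPM in SW620-TET2CD. Its highest 2 libraries were those of day 12, SW620 at day 6 was the lowest, and the 5 between them formed a chain of overlapping intervals.

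PGF, the placental growth factor, was low, at 1.38, 1.67, 1.64 and 1.31 CPM in SW620 and 2.21, 2.07, 1.43 and 2.02 CPM in SW620-TET2CD. Each of its libraries had an interval that overlapped that of its neighbour in the order. VEGFC, the lymphatic ligand, had 0 UMIs in all 8 single-cell libraries and 0 counts in all 6 bulk libraries. A count of 0 allows at most 3 counts, which is 0.0404 to 0.0623 CPM in these single-cell libraries. Such limits and the Poisson intervals cover counting error only.

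ANGPTL4 was close to absent in the early libraries, with 1 and 4 UMIs in SW620 and 3 and 1 UMIs in SW620-TET2CD at days 6 and 9. At days 12 and 15 it had 47 and 62 UMIs in SW620 and 48 and 91 UMIs in SW620-TET2CD, or 0.926 to 1.78 CPM. With the early days of a line summed, the late level was 27.0-fold that of the early days in SW620 (95% exact counting interval 11.2 to 84.7) and 51.4-fold in SW620-TET2CD (19.6 to 191). The groups did not overlap, but the gene passed the filter on low counts through its late libraries alone, so it had to differ once it was tested. The bulk tables gave ANGPTL4 1 to 5 counts per library, too few to compare.

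ADM was highest at day 12 and fell back by day 15. It stood at 3.48, 3.33, 11.2 and 5.75 CPM in SW620 and at 4.61, 5.10, 15.0 and 7.13 CPM in SW620-TET2CD at days 6, 9, 12 and 15. The day 12 libraries of both lines were above all others by their intervals. In SW620 the day 15 level was 0.516-fold that of day 12 (95% exact counting interval 0.447 to 0.594) and in SW620-TET2CD 0.475-fold (0.418 to 0.539). All 4 late libraries were above the early ones, although the interval of SW620 at day 15 overlapped that of SW620-TET2CD at day 9. How many of all genes did so was not counted, so this does not set ADM apart.

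The promoters of ANGPTL4 and ADM are shown because both genes were higher in all 4 late libraries and are textbook targets of hypoxia-inducible factors, whose core motifs are ACGTG and GCGTG; capitals mark a match on either strand. The sequences run from 250 bases before to 50 bases after the transcript start and are from RefSeq (GRCh38.p14), chr19:8363905-8364204 and chr11:10304823-10305122, both on the plus strand.
ANGPTL4: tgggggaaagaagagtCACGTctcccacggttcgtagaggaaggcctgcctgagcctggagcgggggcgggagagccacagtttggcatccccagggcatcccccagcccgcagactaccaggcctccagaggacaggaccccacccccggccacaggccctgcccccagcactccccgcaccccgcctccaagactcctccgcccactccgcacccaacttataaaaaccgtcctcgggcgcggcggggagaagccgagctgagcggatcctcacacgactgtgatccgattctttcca
ADM: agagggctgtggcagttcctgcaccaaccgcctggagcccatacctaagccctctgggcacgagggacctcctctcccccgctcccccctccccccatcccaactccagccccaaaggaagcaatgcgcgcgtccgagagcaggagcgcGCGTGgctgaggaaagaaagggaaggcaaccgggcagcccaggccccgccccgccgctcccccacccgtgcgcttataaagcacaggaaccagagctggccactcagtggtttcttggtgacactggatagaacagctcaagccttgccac
The ANGPTL4 window, which lies inside the GENCODE gene model, held 1 ACGTG, on the minus strand and so read here as CACGT, beginning 234 bases before the start. The ADM window held 1 GCGTG on the plus strand, beginning 101 bases before the start. ACGTG occurred on either strand in 21.4% of the 35116 promoter windows of the same length and GCGTG in 36.5%, and 48.4% held at least one of them, so a match describes these letters and is not evidence of a bound site. VEGFB, VEGFC and PGF, which did not pass the test of time or were not detected, also held 1 GCGTG in each of their windows. Promoter entries were found for 6 of the 8 genes; VEGFA and NRP1 had none.

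NRP1, the co-receptor for VEGFA and semaphorin 3A, went down. It was at 7.78, 6.58, 2.90 and 3.69 CPM in SW620 at days 6, 9, 12 and 15, and at 11.1, 9.44, 3.65 and 7.39 CPM in SW620-TET2CD. Within each line both late libraries lay below both early ones and day 12 was the lowest, but across lines the groups overlapped, as SW620-TET2CD at day 15 was above SW620 at day 9. NRP2, which also binds VEGFC and semaphorin 3F, was highest at day 15 in both lines. It was at 15.7, 16.8, 17.2 and 33.8 CPM in SW620 and at 25.5, 23.6, 22.2 and 53.9 CPM in SW620-TET2CD. Day 15 exceeded day 12 by 1.97-fold in SW620 (95% exact counting interval 1.81 to 2.14) and by 2.43-fold in SW620-TET2CD (2.27 to 2.61), with 1 library on each side.

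The NRP2 promoter is shown because NRP2 was called between the lines in single-cell and in bulk data and its window holds neither motif, chr2:205682251-205682550, plus strand, from RefSeq (GRCh38.p14).
NRP2: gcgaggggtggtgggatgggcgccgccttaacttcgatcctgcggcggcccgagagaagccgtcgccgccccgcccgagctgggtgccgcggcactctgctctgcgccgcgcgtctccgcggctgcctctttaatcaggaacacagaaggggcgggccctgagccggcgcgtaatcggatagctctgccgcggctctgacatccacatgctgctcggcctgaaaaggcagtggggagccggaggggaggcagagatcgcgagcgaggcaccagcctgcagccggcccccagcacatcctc
This window, which also lies inside the GENCODE gene model, held 33 CG dinucleotides, the sites at which DNA methylation is placed and TET enzymes act, against 42 for VEGFB, 40 and 27 for the PGF entries, 32 for VEGFC, 20 for ANGPTL4, 16 for ADM and a median of 14 over all windows. VEGFB and 1 of the PGF windows thus held more, and neither gene was called between the lines. No match says only that these letters are absent from the window.

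**Figure D1:**
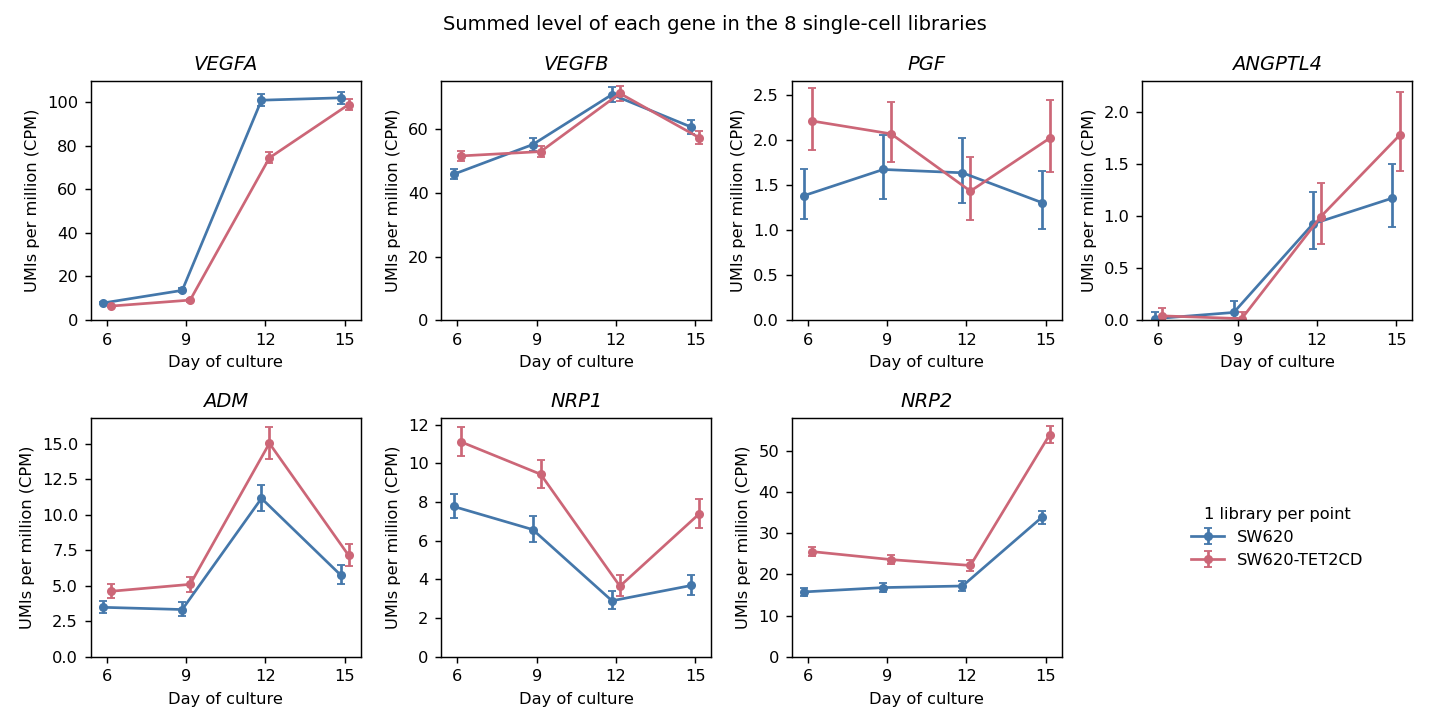
Level of 7 genes in CPM (linear axis from 0) against day of culture, 1 library per point, SW620 in blue and SW620-TET2CD in red, with 95% Poisson intervals of the count. VEGFA and ANGPTL4 step up between days 9 and 12, ADM peaks at day 12 and NRP2 is highest at day 15, at 33.8 and 53.9 CPM.

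The first comparison asked how the genes differed between late and early culture, with UMIs summed per library, the line as a block, edgeR's quasi-likelihood test and Benjamini-Hochberg adjustment over 16993 genes. Of all genes tested 57.7% passed an adjusted p of 0.05, 29.4% higher and 28.3% lower in late culture, and 62.7% had an unadjusted p below 0.05, so a call by itself sets no gene apart here. Of the 6 members tested other than ANGPTL4, whose entry into the test fixed its direction, 2 were called higher and 1 lower. VEGFA rose by 3.24 on the log2 scale (SE 0.19, adjusted p = 6.91e-06). ADM rose by 1.13 (SE 0.25, adjusted p = 0.00307). NRP1 had a log2 fold change of -1.13 (SE 0.21, adjusted p = 0.000986).

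NRP2 (log2 fold change 0.53, SE 0.27, adjusted p = 0.114), VEGFB (0.23, SE 0.12, adjusted p = 0.138) and PGF (-0.30, SE 0.19, adjusted p = 0.187) did not pass. Upper-quartile scaling moved the median of all genes from 0.04 to 0.21 and made 63.4% of the calls higher rather than 51.0%. With it, NRP2 (0.69, adjusted p = 0.0398) and VEGFB (0.40, adjusted p = 0.0184) also passed. NRP2 passed without the day 12 library of SW620 (0.69, adjusted p = 0.0366) or of SW620-TET2CD (0.73, adjusted p = 0.0128), and VEGFB without the day 15 library of SW620-TET2CD (0.33, adjusted p = 0.0290). No gene of 17478 was called for a line-by-time difference by edgeR or DESeq2, and 141 genes (0.807%) had an unadjusted p below 0.05, so none of the members was called. In simulated counts this interaction test recovered 15.2% of genes changed by 1 and 85.2% of genes changed by 2 on the log2 scale, so a difference of 1 between the lines in their time course would mostly have been missed.

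Among the lists of related genes, 10 of 18 tested other secreted angiogenic factors were higher late and 2 lower, with a median log2 fold change of 0.86 against 0.04 for all genes. The most changed were EDN1, the vasoconstrictor endothelin (-2.94, adjusted p = 0.000265), GDF15, a stress-induced cytokine (1.90, adjusted p = 8.89e-06), PDGFB, a platelet-derived growth factor chain (1.84, adjusted p = 8.91e-05), and AREG, the EGF receptor ligand amphiregulin (1.64, adjusted p = 0.00991). Of 9 tested secreted inhibitors of angiogenesis 1 was higher and 1 lower: TIMP2, a metalloproteinase inhibitor (0.64, adjusted p = 0.0169), and THBS1, thrombospondin (-1.91, adjusted p = 0.00121). Of 11 tested neuropilin ligands and plexins 5 were higher and 1 lower, among them SEMA3B (2.09, adjusted p = 0.000242) and SEMA3D (1.40, adjusted p = 9.29e-05). PLXNA4, counted higher at 0.0271 to 0.394 CPM, and SEMA3C, counted lower, had few UMIs in the group where they were low, so they entered the test through the other group and their direction was fixed. Of 25 tested genes of a hypoxia list, which holds no member, 20 were higher and none lower, with a median of 1.64.

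Some markers of other cells also moved with time, in both directions. The 6 leukocyte markers summed to 7.48 to 17.4 CPM in the early and 23.8 to 57.6 CPM in the late libraries. CD68 (3.10, adjusted p = 0.000628) and LYZ (1.07, adjusted p = 0.00241), at medians of 2.75 and 14.7 CPM over the 8 libraries, were called higher late, CD14 was at -0.20 (adjusted p = 0.601), and PTPRC, the defining leukocyte marker, had a UMI in at most 0.0256% of cells thinned to 2000 UMIs. The 6 fibroblast markers summed to 16.6 to 28.7 CPM early and 8.37 to 12.9 CPM late, and of the 4 tested LUM was lower late (-1.39, adjusted p = 0.000951) while COL1A1 (0.75, adjusted p = 0.0150) was called higher. DCN was also called higher, but at 0 to 0.431 CPM it had few UMIs, so its call is given no weight. The 7 endothelial markers summed to 0.420 to 1.59 CPM early and 0.749 to 2.84 CPM late, and of the 2 tested VWF was higher late (1.06, adjusted p = 0.0428) and PECAM1 was at -0.44 (adjusted p = 0.326). DESeq2 did not give the call on VWF (adjusted p = 0.0668), which stood at 0.121 to 0.664 CPM. The part of these markers in the late levels was not tested.

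The receptors through which the secreted factors act were near or below detection in the single-cell libraries. KDR was at 0 in all 8 libraries, CALCRL and RAMP3 at 0 in 7 of 8, FLT4 at 0 in 4 and FLT1 at 0 in 3, with maxima of 0.0588 CPM for FLT4 and 0.248 CPM for FLT1. RAMP1, which pairs CALCRL to bind CGRP rather than adrenomedullin, was at 78.8 to 104 CPM, and RAMP2 at 0.244 to 1.22 CPM. ADM2, a related peptide that uses the same receptors, rose late by 3.81 on the log2 scale (SE 0.39, adjusted p = 3.91e-05), from a lowest library of 0.175 to a highest of 6.96 CPM. VEGFD, the remaining VEGF ligand, was at 0.0270 to 0.392 CPM and entered the test through its late libraries alone, so no test of it is given.

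The second comparison set SW620-TET2CD against SW620, blocked by day, over 17478 genes, of which 4.32% were called, 2.48% higher and 1.84% lower in SW620-TET2CD. Of the 7 members tested, 2 were called higher and 1 lower. NRP1 was higher by 0.49 on the log2 scale (SE 0.11, adjusted p = 0.0221) and NRP2 by 0.45 (SE 0.09, adjusted p = 0.0167), each in 4 of 4 days. VEGFA was lower, at -0.44 (SE 0.10, adjusted p = 0.0230), also in 4 of 4 days. ADM (0.33, adjusted p = 0.161), PGF (0.26, adjusted p = 0.548), ANGPTL4 (0.13, adjusted p = 0.903) and VEGFB (-0.10, adjusted p = 0.755) did not pass.

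On single days the scaled log2 ratio of NRP2 was 0.67, 0.41, 0.35 and 0.37 at days 6, 9, 12 and 15, and that of NRP1 0.49, 0.44, 0.32 and 0.70. For VEGFA it was -0.31, -0.65, -0.46 and -0.35. The ratios of NRP2 and VEGFA had counting intervals off 0 on every day, whereas that of NRP1 at day 12 reached from -0.01 to 0.64. The scaling factors (TMM, edgeR's trimmed mean of M-values) differed between the lines by 0.31 on the log2 scale at day 15 and by 0.08 or less on the other days. In plain CPM the VEGFA ratio at day 15 was therefore -0.04, and that of ADM 0.31 in CPM but 0.00 after scaling.

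Without the day block 46 genes and 0 members were called. Without either library of day 6 or day 9 no member passed, with adjusted p of 0.0967 to 0.138 for NRP2, 0.0902 to 0.110 for NRP1 and 0.0702 to 0.217 for VEGFA. Without SW620 or SW620-TET2CD at day 12 VEGFA was lost (adjusted p = 0.0887 and 0.0772) and NRP1 and NRP2 passed, and without SW620 or SW620-TET2CD at day 15 all 3 passed and ADM was gained (0.45, adjusted p = 0.0276, and 0.44, adjusted p = 0.0299). The fold changes themselves stayed at 0.37 to 0.49 for NRP2, 0.43 to 0.54 for NRP1 and -0.49 to -0.37 for VEGFA. The 7 endothelial markers moved with the line in sum but not each: they summed to 0.420 to 0.813 CPM in SW620 and 1.03 to 2.84 CPM in SW620-TET2CD, with PECAM1 called (1.88, adjusted p = 0.00205), CLDN5 at 0 to 1.37 CPM and entering the test through SW620-TET2CD alone, and KDR at 0. VWF (0.19, adjusted p = 0.866) and TIE1 (-0.44, adjusted p = 0.714) did not pass. Of the leukocyte markers LYZ was higher (0.82, adjusted p = 0.00781) and CD68 lower (-1.09, adjusted p = 0.00838) in SW620-TET2CD. PECAM1 had a UMI in 0.0512% to 0.209% of thinned cells, and the part of these markers in the line differences was not tested.

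**Figure D2:**
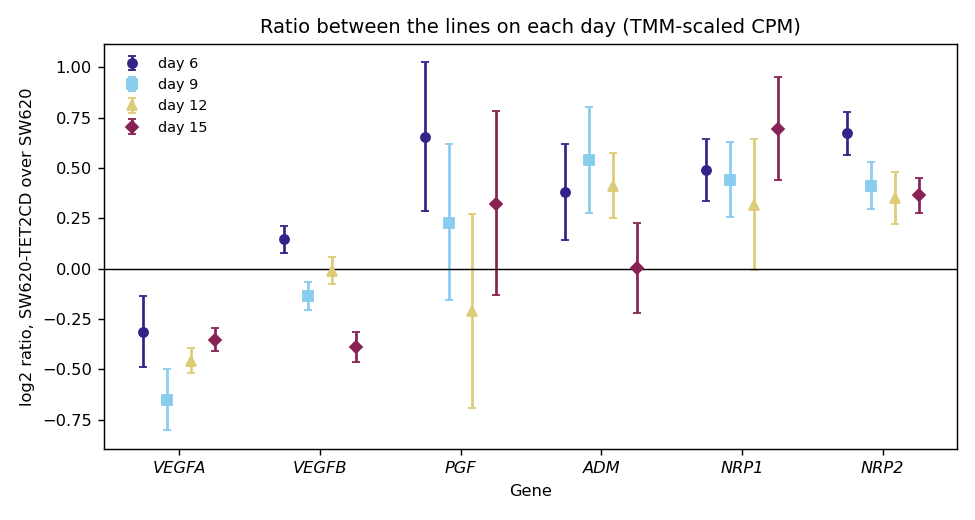
Log2 ratio of SW620-TET2CD over SW620 for 6 genes on each of the 4 days, from TMM-scaled CPM, with 95% exact counting intervals and 1 library per line and day. NRP1 and NRP2 lie above 0 and VEGFA below 0 on all 4 days, while VEGFB lies on either side.

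Among the other secreted angiogenic factors 4 of 18 tested were higher in SW620-TET2CD and 3 lower. The largest differences were those of CXCL1, a neutrophil chemokine (1.19, adjusted p = 0.00134), EDN1 (-0.95, adjusted p = 0.00123), ANGPT2, an antagonist ligand of the TEK receptor (0.86, adjusted p = 0.00145), and EREG, the EGF receptor ligand epiregulin (0.79, adjusted p = 0.00139). Of the secreted inhibitors THBS1 was higher (0.88, adjusted p = 0.000692) and TIMP3 lower (-1.0, adjusted p = 0.00388). Of the neuropilin partners PLXNA2 (-0.78, adjusted p = 0.0142) and SEMA3B (-0.62, adjusted p = 0.00424) were lower and none of the 11 tested was higher. RAMP2 was higher by 0.93 (adjusted p = 0.0466), a call that DESeq2 did not give (adjusted p = 0.106).

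Cells within a library were compared in these genes along a hypoxia list of 26 other genes, such as CA9, NDRG1 and PGK1. In each library the 25% of cells with the highest share of UMIs from the list (list-high cells) were compared with the 25% with the lowest (list-low cells), over 15303 genes with the library as a block. Of these genes 12.3% were called, 8.33% higher and 3.93% lower in list-high cells, and 31.4% had an unadjusted p below 0.05. The share of calls that were higher was 67.9%, and 41.5% under upper-quartile scaling. ANGPTL4 passed the filter on low counts through list-high cells alone, so its fit is given no weight here. Of the 6 other members tested 3 were higher in list-high cells: VEGFA (1.64, SE 0.39, adjusted p = 0.0260), ADM (1.49, SE 0.35, adjusted p = 0.0271) and NRP2 (1.01, SE 0.24, adjusted p = 0.0275). NRP1 (0.04, adjusted p = 0.835), VEGFB (0.14, adjusted p = 0.139) and PGF (0.39, adjusted p = 0.137) did not pass.

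The difference was widest in the late libraries for VEGFA. It went from 41.1 to 230 CPM between list-low and list-high cells in SW620 at day 12, from 52.3 to 207 CPM at day 15, and in SW620-TET2CD from 23.1 to 184 CPM and from 40.6 to 244 CPM. At day 6 it went from 9.98 to 6.73 CPM in SW620 and from 6.93 to 6.10 CPM in SW620-TET2CD, and at day 9 from 10.0 to 28.9 CPM and from 8.0 to 13.4 CPM. List-high cells of the 4 late libraries all stood at 184 CPM or more, while those of day 6 were below the list-low cells of their own library. The day 9 libraries lay between.

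ANGPTL4 was nearly confined to the list-high cells of the 4 late libraries, when set against list-low cells, with 44 against 1 UMI and 49 against 0 in SW620 at days 12 and 15, and 46 against 1 and 78 against 0 in SW620-TET2CD. ADM went from 4.79 to 25 CPM and from 4.02 to 11.7 CPM in SW620 at days 12 and 15. In SW620-TET2CD it went from 4.24 to 36.9 and from 3.14 to 16.9 CPM, so that list-low cells stayed between 3.14 and 4.79 CPM. NRP2 went from 7.66 to 32.5 and from 19.6 to 45.8 CPM in SW620, and from 13 to 38.6 and from 31.0 to 105 CPM in SW620-TET2CD. At day 6 NRP2 was at 15.0 and 16.2 CPM in SW620 and at 26.9 and 23.2 CPM in SW620-TET2CD, and at day 9 at 13.1 and 19.96 CPM and at 21.7 and 26.5 CPM. ADM at day 6 was at 3.35 and 3.44 CPM in SW620 and at 5.11 and 5.17 CPM in SW620-TET2CD, and at day 9 at 2.35 and 5.68 CPM and at 5.8 and 6.65 CPM. Both genes thus differed little between the cells at day 6. In SW620 at day 9 both were already higher in list-high cells, ADM at 2.42-fold and NRP2 at 1.52-fold.

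Whether the difference between list-high and list-low cells itself differed with time was tested after these values had been seen. It was larger in late libraries by 2.02 on the log2 scale for VEGFA (SE 0.31, adjusted p = 0.000188), by 2.05 for ADM (SE 0.29, adjusted p = 0.000103) and by 1.43 for NRP2 (SE 0.17, adjusted p = 3.25e-05), in a test that called 39.7% of genes, 18.5% higher and 21.2% lower, with 47.9% at an unadjusted p below 0.05. The gap in the list itself was also wider late: the median share of UMIs from the list was 0.110% to 0.154% in list-low and 0.248% to 0.372% in list-high cells of the early libraries, and 0.144% to 0.218% and 0.660% to 0.984% in those of the late libraries. Its part in the interaction was not tested. ANGPTL4 had too few early UMIs for this fit (4.34, SE 23.4, adjusted p = 0.902). Between the lines no gene was called for a different effect of the list by edgeR, and 105 genes (0.686%) had an unadjusted p below 0.05; for VEGFA the difference was 0.18 (SE 0.80).

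Leaving out any library of day 12 or 15 ended the calls on VEGFA, ADM and NRP2, with adjusted p of 0.0643 to 0.0931 for VEGFA, 0.0656 to 0.0954 for ADM and 0.0669 to 0.0905 for NRP2 and fold changes of 0.84 or more. Without SW620 at day 9 VEGFA had an adjusted p of 0.0504 (1.64). In the late libraries list-high cells also had fewer UMIs per cell (medians of 5687 to 11031 against 7940 to 14380) and a lower mitochondrial share (medians of 3.68% to 4.42% against 5.76% to 8.14%). Over all libraries 3 of 8 epithelial markers were higher in list-high cells, KRT18 (0.44), KRT8 (0.42) and EPCAM (0.22), as were CD68 (1.63, adjusted p = 0.0201) of 2 leukocyte markers tested and COL1A1 (0.62, adjusted p = 0.0472) of 3 fibroblast markers tested, and their part was not tested. The calls on EPCAM and COL1A1 were lost with upper-quartile scaling (adjusted p = 0.0886 and 0.0696). Both were also lost with no filter on low counts (adjusted p = 0.107 and 0.0596). With cells thinned to 2000 UMIs before they were ranked, VEGFA, ADM and NRP2 were again called.

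**Figure D3:**
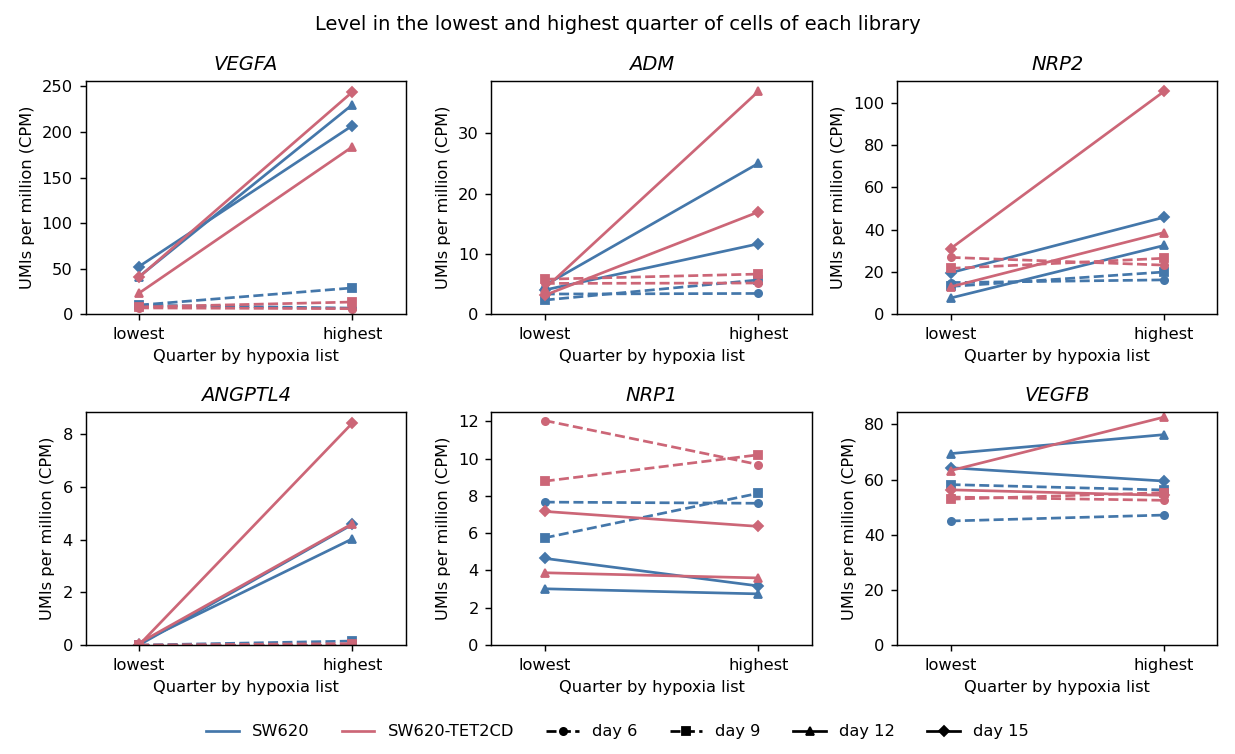
Level in CPM (linear axes from 0) in the 25% of cells lowest and the 25% highest by the hypoxia list in each of the 8 libraries, lines joining the values of a library, solid for days 12 and 15 and dashed for days 6 and 9. VEGFA, ADM, NRP2 and ANGPTL4 rise in all 4 late libraries, up to 244 CPM for VEGFA. VEGFB in list-high cells is at 0.925-fold to 1.31-fold its level in list-low cells. NRP1 goes either way, from 0.682-fold in SW620 at day 15 to 1.42-fold in SW620 at day 9.

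The other secreted factors followed in part: 7 of 18 tested were higher in list-high cells and none lower, with a median of 0.65, and 2 were higher under upper-quartile scaling. The largest were AREG (1.78, adjusted p = 0.0436), PDGFB (1.59, adjusted p = 0.0453), HBEGF, the heparin-binding EGF-like ligand (1.18, adjusted p = 0.0451), and STC2, a secreted stanniocalcin (1.13, adjusted p = 0.00766), and of these STC2 alone kept its call under that scaling. Of 9 tested inhibitors TIMP3 (1.23, adjusted p = 0.00317) and TIMP2 (0.51, adjusted p = 0.0498, and 0.0771 with upper-quartile scaling) were higher and SERPINF1 (-0.76, adjusted p = 0.00605) and SEMA3F (-0.37, adjusted p = 0.0301) lower. Of the neuropilin ligands SEMA3B was higher (0.60, adjusted p = 0.0261) and SEMA3D and SEMA3F were lower, as was SEMA3G, which had few UMIs in list-high cells.

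The share of cells with a VEGFA UMI was larger in the late libraries, but its level was uneven among cells. List-low cells of the late libraries stood at 23.1 to 52.3 CPM and list-high cells at 184 to 244 CPM. The late list-low cells were still above the list-low cells of the early libraries, at 6.93 to 10.0 CPM. Thinned to 2000 UMIs per cell, 1.07% to 2.93% of cells of the early libraries had a VEGFA UMI, and 17.6%, 13.6%, 18.6% and 19.0% in SW620 day 12, SW620-TET2CD day 12, SW620 day 15 and SW620-TET2CD day 15. Without thinning the late shares were 44.6% to 57.4%. VEGFB was seen in 8.88% to 12.8% of thinned cells, NRP2 in 3.02% to 10.9%, ADM in 0.669% to 3.04% and NRP1 in 0.640% to 1.99%. For comparison, COL1A1, a fibroblast gene that epithelial cells should lack, had a UMI in 0.217% to 0.659% of the same cells. As COL1A1 was itself called higher late and in list-high cells, its share is no fixed level of background. The shares of PGF, at 0.234% to 0.502%, and of ANGPTL4, at 0 to 0.428%, did not exceed its highest value, nor did those of NRP1 at day 12, at 0.640% and 0.645%, and the lowest ADM share was close to it. Apart from the untested one of VEGFA, no difference is read from these shares.

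Among late cells with a VEGFA UMI, NRP2 was seen in 4.94%, 6.44%, 8.14% and 15.0% in SW620 day 12, SW620-TET2CD day 12, SW620 day 15 and SW620-TET2CD day 15, against 3.23%, 3.88%, 5.87% and 9.96% of the remaining cells. Both genes in a cell were thus 1.29 to 1.52 times as frequent as their separate shares would give, whereas the ratio was 0.896 to 1.10 for VEGFA with VEGFB. These figures describe sparse counts of 1 library each and carry no test.

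VEGFA, VEGFB and NRP2 had a mean of at least 8 CPM, and their profiles over the 8 libraries were compared with those of 8716 other genes at that level, by the root mean square difference of log2(CPM + 1) after centring. VEGFA was nearest to DEPP1, at 0.21, BBC3, at 0.21, and IGFBP3, at 0.26, while its own profile spanned 3.79. VEGFB was nearest to WDR24, INO80B and ERCC1, at 0.05 each, and NRP2 to ALDH1A3, HOXC11 and ADAM19, at 0.22 to 0.23. The 8 points share their libraries and depth, and the likeness carries no test.

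In the bulk libraries levels could be set side by side between genes, as TPM values are scaled by transcript length and library total. VEGFA was the most abundant member in every bulk library of SW620 and SW620-TET2CD. It was at 48.7 TPM in SW620 at day 6 and at 166 and 183 TPM inside and outside at day 15. In SW620-TET2CD it was at 306 and 181 TPM inside and outside. VEGFB followed, at 24.8, 40.1 and 33.1 TPM in SW620 and 35.7 and 34.3 TPM in SW620-TET2CD. NRP2 was at 11.4, 7.87 and 10.7 TPM in SW620 and at 23.5 and 28.5 TPM in SW620-TET2CD. The early single-cell libraries gave another order. In SW620 VEGFA was below VEGFB there, at 7.84 against 45.9 CPM at day 6 and 13.6 against 55.2 CPM at day 9. A bulk level cannot tell fewer cells that express a gene from less RNA per cell.

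ADM was at 4.71, 4.67 and 3.62 TPM in SW620 at day 6, inside and outside, and at 15.7 and 9.66 TPM inside and outside in SW620-TET2CD. NRP1 was at 1.94, 0.79 and 0.58 TPM and at 2.04 and 1.92 TPM in the same order, and PGF at 1.66, 0.43 and 0.52 TPM and at 0.39 and 0.55 TPM. In SW620 the day 15 level of ADM was 0.992-fold that of day 6 inside and 0.769-fold outside, without the 1.65-fold rise of the single-cell libraries between these days. VEGFA stood at 3.41-fold and 3.75-fold, against 13-fold in the single-cell libraries. NRP2 was at 0.689-fold and 0.934-fold, against a rise of 2.15-fold there. Each of these ratios rests on single libraries with no test. In SW480, whose single library allows no test, the order was another one: VEGFB was at 68.9 TPM, NRP1 at 32.7, NRP2 at 26.5, ADM at 26.0 and VEGFA at 24.6 TPM. Against SW620 at day 6, NRP1 in SW480 was 16.8-fold, ADM 5.52-fold and VEGFA 0.506-fold. Antisense genes share exonic bases with VEGFA (188), NRP1 (561) and NRP2 (147), and as the bulk kit did not keep strand, reads of either could not be told apart there.

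**Figure D4:**
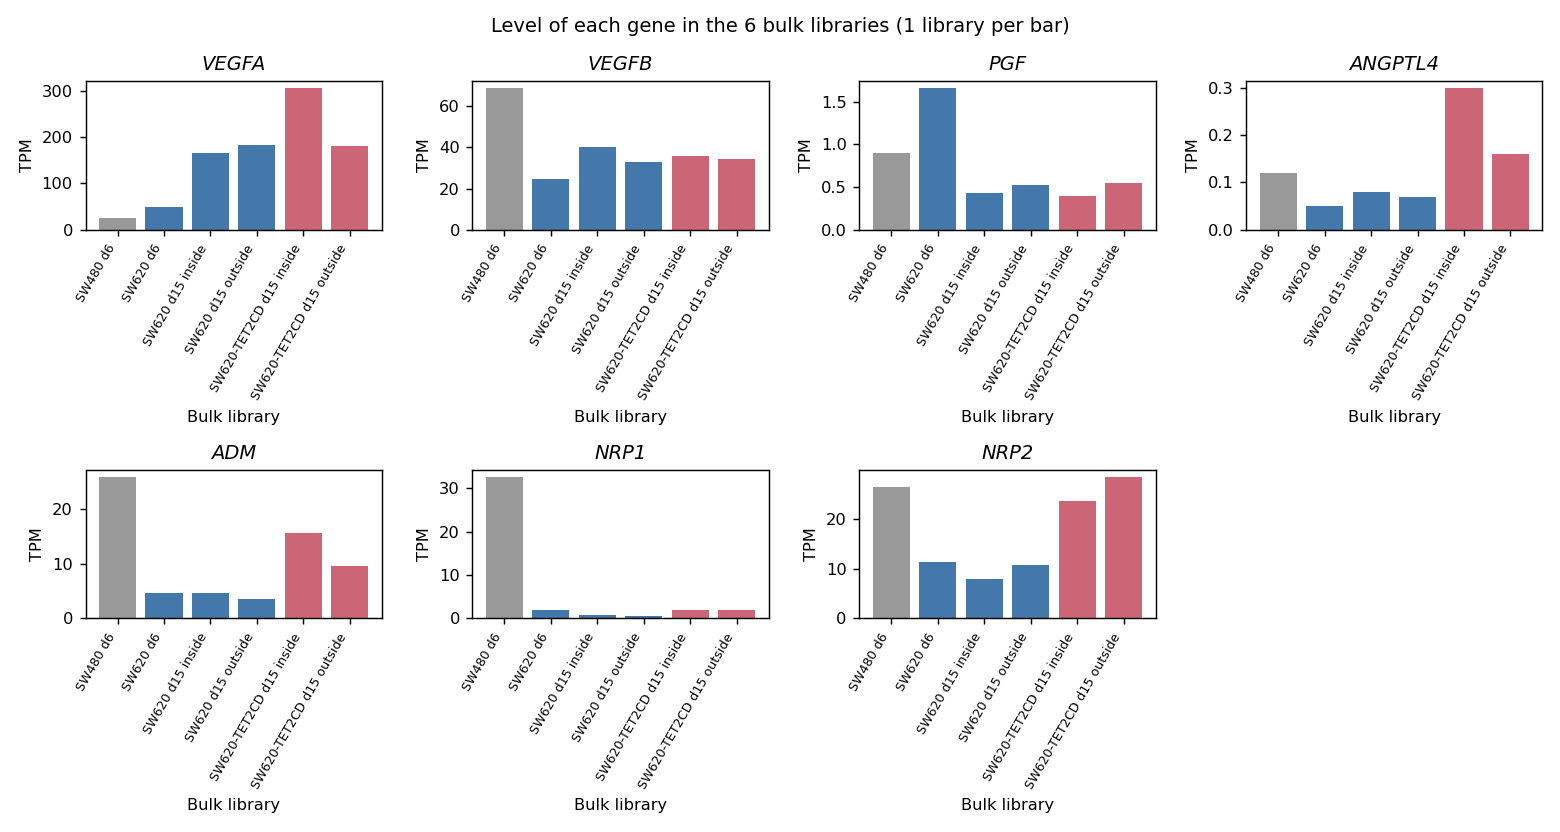
Level of 7 genes in TPM (linear axes from 0) in the 6 bulk libraries, 1 library per bar, with SW480 in grey, SW620 in blue and SW620-TET2CD in red. SW480 stands highest for NRP1, at 32.7 TPM, and both SW620-TET2CD libraries stand above all SW620 libraries for NRP2 and ADM.

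Between the lines at day 15, with the side of the colony as a block, 0.418% of 17722 genes were called, 0.288% higher and 0.13% lower. Of the 6 members tested NRP2 was called, higher in SW620-TET2CD by 1.5 on the log2 scale (SE 0.12, adjusted p = 0.0440), a call lost without the block (adjusted p = 0.0825). NRP1 (1.97, SE 0.33, adjusted p = 0.0848) and ADM (1.51, SE 0.27, adjusted p = 0.0904) did not pass in edgeR, but did in DESeq2 (adjusted p = 0.0394 and 0.00932). Both were higher on both sides, NRP1 by 1.20 inside and 1.59 outside and ADM by 1.68 and 0.95 on the log2(CPM + 1) scale. VEGFA (0.29, adjusted p = 0.599), VEGFB (-0.09, adjusted p = 0.740) and PGF (-0.10, adjusted p = 0.929) did not pass. In simulated counts the edgeR test recovered 78.5% of genes changed by 1 on the log2 scale. With 3 of the 4 libraries no degree of freedom is left, so the call on NRP2 could not be checked that way; its ratio was 1.63 inside and 1.31 outside.

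FLT1, the receptor for VEGFA, VEGFB and PGF, was at 0.01 and 0.04 TPM inside and outside in SW620, from 1 and 3 counts, and at 0.29 and 3.45 TPM in SW620-TET2CD, from 17 and 304 counts. It entered the test through SW620-TET2CD alone, so no test of it is given. KDR was at 0 in all 6 bulk libraries, and FLT4 was at 0.19, 0.04, 1.18 and 0.39 TPM, likewise with few counts in SW620. Endothelial markers were again highest there, summing to 31.1 TPM in SW620-TET2CD outside and to 2.20 TPM or less in the 5 other libraries, of which CLDN5 made 25.1 TPM and PECAM1 5.06 TPM. Whether they bear on the FLT1 level was not tested. Of 17 tested other secreted factors 2 were called, EREG (3.53, adjusted p = 0.0289) and HBEGF (1.88, adjusted p = 0.0440).

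Between outside and inside no gene of 17722 was called by edgeR, 22 were by DESeq2, and 1076 (6.07%) had an unadjusted p below 0.05. Of the 6 members tested ADM (-0.77, SE 0.27, unadjusted p = 0.0355, adjusted p = 0.770) and NRP2 (0.35, SE 0.12, unadjusted p = 0.0370, adjusted p = 0.770) were among the latter. In simulated counts the edgeR test recovered 61.1% of genes changed by 1 and 97.8% of genes changed by 2 on the log2 scale. ADM was lower outside in both lines, by -0.30 in SW620 and -1.03 in SW620-TET2CD on the log2(CPM + 1) scale, and NRP2 higher outside in both, by 0.50 and 0.18. VEGFA differed little in SW620, at 0.15, and was -0.94 in SW620-TET2CD (fitted over both lines -0.40, adjusted p = 0.804). The hypoxia list summed to 2147 and 2314 TPM inside and outside in SW620 and 3960 and 2733 TPM in SW620-TET2CD. In SW620 at day 6 it summed to 2899 TPM, above both SW620 libraries of day 15. The single-cell sums of SW620 went the other way, from 2237 CPM at day 6 to 3653 CPM at day 15. These are single libraries, and the difference was not tested.

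**Figure D5:**
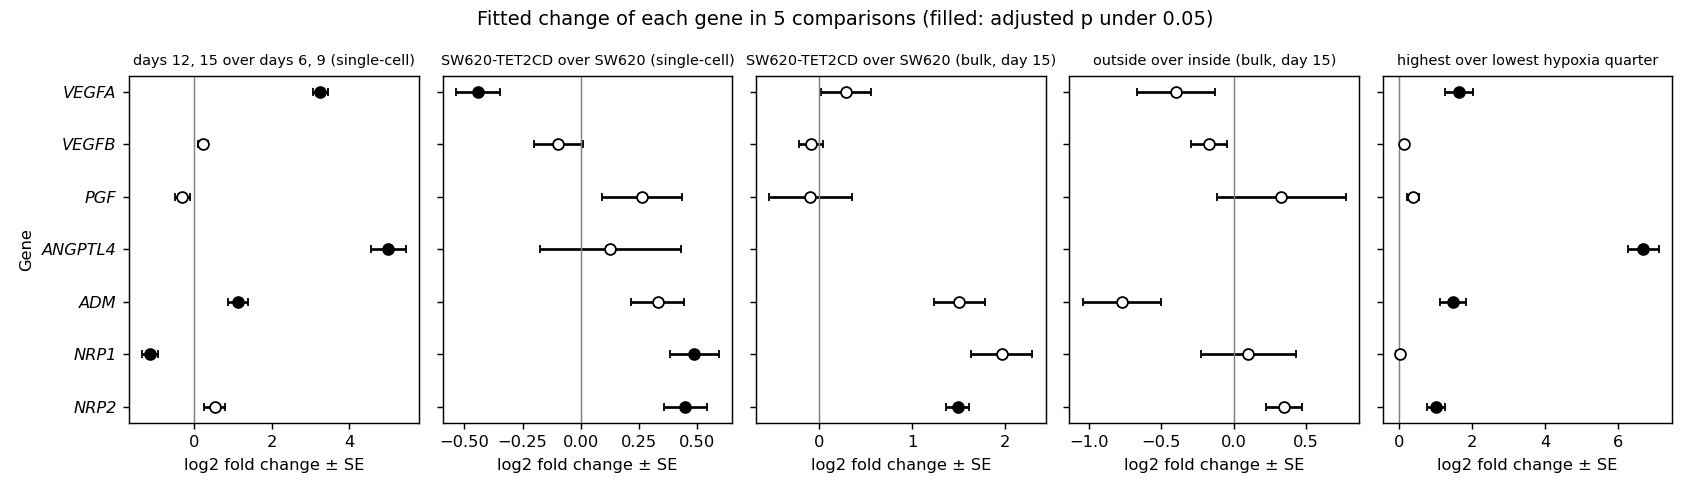
Fitted log2 fold change (point) and its standard error (bar) of each tested gene in 5 comparisons, each panel with its own axis, filled where the adjusted p was below 0.05. VEGFA and ADM are filled for time and for the hypoxia list, as is ANGPTL4, which entered both tests only through the group in which it is high, and NRP2 is filled for the line in single-cell and bulk data, at 0.45 and 1.5.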

How the data were processed

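The single-cell matrices hold the counts of UMIs per gene and cell that the authors deposited from Cell Ranger 4.0 with GRCh38, per the labels. The bulk tables hold the expected counts and the TPM that the authors made with RSEM and Bowtie; the labels name mm10 for them although the gene identifiers are human, so their build is not settled here. Barcodes were kept between 200 and 4500 detected genes, between 1000 and 20000 UMIs and up to a mitochondrial share of 10%, and those cells were summed per library; no doublet caller was run. Bulk expected counts were rounded, and 45 duplicate rows of the Y pseudoautosomal region were left out. Sums were tested with edgeR 4.0.16 (filterByExpr, TMM, quasi-likelihood, Benjamini-Hochberg) in R 4.3.3, with DESeq2 1.42.0 as an alternative; fits were tested on simulated data. Bulk pair ratios are of log2(CPM + 1), and log2 TPM ratios used a pseudocount of 1, or 0.1 as an alternative. Intervals are 95%. Gene positions came from GENCODE on GRCh38, for single-cell genes only.

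The members and lists were chosen with earlier results of these data known. Named besides the members are up to 4 called genes per list and comparison with the largest change, receptor parts by level, and the 3 nearest profiles; CA9, NDRG1, PGK1, EPCAM, KRT8, KRT18, KRT20, CD68, LYZ, PTPRC, CD14, VWF, TIE1, LUM, DCN and COL1A1 serve as checks or examples.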

Additional observations from a re-analysis of the deposited data

Results flagged for a closer look

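The difference between the 25% of cells highest and the 25% lowest by the hypoxia list differed between late and early libraries for 3 members by an interaction term added after the data were seen, and the gap in the list itself was wider late. It was larger late by 2.02 on the log2 scale for VEGFA, by 2.05 for ADM and by 1.43 for NRP2. On the scaled log2(CPM + 1) scale 2 members went opposite ways outside against inside in the lines in bulk, and this was not tested: VEGFA by 0.15 in SW620 and -0.94 in SW620-TET2CD, and NRP1 by -0.12 and 0.28. In TPM the NRP1 ratio was 0.734-fold and 0.941-fold, lower outside in both lines, so its opposite signs depend on the unit. The line ratio of VEGFA on the log2(CPM + 1) scale was 0.83 inside and -0.26 outside, also untested, and in TPM 1.84-fold inside and 0.990-fold outside. In SW620-TET2CD the TET2 level also differed between the sides, at 38.1 TPM inside and 124 TPM outside, and its part was not tested. No group held 4 or more samples, so no library could be examined as an outlier of its group.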

How the results depend on the processing

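Libraries were blocked by day, line or side of the colony, and the labels give no replicate numbers to pair them by. Without the day block 46 genes and 0 members were called for the line, and with no filter on low counts 1489 genes; ANGPTL4 turned to -0.10 with every barcode and to -0.035 at a mitochondrial limit of 20%. Leaving out a library gave 440 to 774 genes and 0 to 4 members called, VEGFB at -0.18 to 0.0064 and ANGPTL4 at -0.016 to 0.25. For time, leaving out a library gave 8216 to 10356 genes and 4 to 5 members, with ANGPTL4 counted, and no member turned. For line by time, 15 genes were called with no filter, VEGFA turned to -0.022 at the mitochondrial limit of 20%, and leaving out a library moved NRP2 between -0.88 and 0.48, VEGFA between -0.35 and 0.45, NRP1 between -0.44 and 0.46, ADM between -0.91 and 0.29, VEGFB between -0.42 and 0.013, PGF between -0.58 and -0.21 and ANGPTL4 between -0.66 and 1.69. For location, 22 genes were called by DESeq2 and 441 with no filter. For the line in bulk, 710 genes and 3 members were called by DESeq2, 178 genes by upper-quartile scaling, 2211 genes and 3 members with no filter, and 8 genes and 0 members without the block. For the comparison by the hypoxia list, thinning gave 437 genes, upper-quartile scaling moved the share of calls that were higher from 67.9% to 41.5%, NRP1 turned to -0.037 by that scaling and to -0.035 with 33.3% of cells at each end, and leaving out a library gave 334 to 1878 genes, 1 to 4 members, with ANGPTL4 counted, and NRP1 at -0.040 to 0.076. The late minus early share of cells with a VEGFA UMI was 15.4 percentage points thinned to 2000 UMIs, 25.4 at 4000 and 41.0 unthinned, as more UMIs per cell show more cells. Other causes were not tested. A pseudocount of 0.1 turned no bulk ratio. A single library per condition limits all comparisons, and bulk counts of 5 or fewer left ANGPTL4 out of the bulk tests.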
